A study of Mus musculus with 10 samples.

Results

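Antigen presentation in gastrocnemius (GAS) muscle was described here through 10 genes, B2m, H2-K1, H2-D1, H2-Aa, H2-Ab1, H2-Eb1, Cd74, Tap1, Tap2 and Tapbp, which were taken by their symbols from a table that covers 21098 genes. Counts were present for 4 of these genes, B2m, H2-D1, H2-Eb1 and Tap2, and all 4 passed the filter on low counts that left 7813 genes for testing. The other 6 were listed at 0 in all 10 libraries. The muscle came from wild-type C57BL/6J males with diet-induced obesity (DIO). They were put on the high-fat diet D12492i at an age of 9 weeks, kept on it for 9 weeks before treatment, and were described as 30 weeks old at sampling. With 14 weeks of treatment these times add up to more than 30 weeks, and each is given as described. The treated group (ASO, 5 libraries) was injected under the skin every week for 14 weeks with 10 mg/kg of RES-010, an antisense oligonucleotide against the microRNA miR-22, and the control group (CTRL, 5 libraries) got the same volume of saline, so that both groups shared the diet, the sex and the injections. The comparison asks how muscle transcripts of obese mice differed between this oligonucleotide and saline. The paper names the lack of a control oligonucleotide of scrambled sequence as a limitation. It adds that earlier observations pointed to no significant difference between a non-targeting oligonucleotide and saline. Silencing of miR-22 and other effects of the oligonucleotide cannot be told apart here. At the first weighing that the paper lists, treated mice were on average heavier than controls.

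Class I molecules display peptides from inside the cell on nearly every cell type. A heavy chain such as H2-K1 or H2-D1 pairs with beta-2 microglobulin (B2m), the transporter made of Tap1 and Tap2 carries peptides into the endoplasmic reticulum, and tapasin (Tapbp) holds the empty heavy chain next to that transporter until a peptide is bound. Class II molecules display peptides from taken-up material on macrophages, dendritic cells and B cells, H2-Aa and H2-Ab1 encode the chains of I-A, H2-Eb1 encodes the beta chain of I-E, and the invariant chain Cd74 guards the groove on the way to the endosome. C57BL/6 mice lack the alpha chain of I-E, so H2-Eb1 has no partner chain in this strain. Muscle fibers carry little class I and no class II at rest, and much of either in the tissue belongs to endothelial, fat and immune cells.

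The sequence of the microRNA that the ASO targets is shown because the members were searched for its site. Mature mmu-miR-22-3p (RefSeq, GRCm38.p6, chr11:75463772-75463793, plus strand) is written 5′ to 3′ with the seed, bases 2 to 8, in capitals.
miR-22-3p: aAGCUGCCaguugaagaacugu
The complement of this seed, GGCAGCT, was found in the longest annotated 3′UTR of 0 of the 10 members, whereas 16.1% of the genes with a 3′UTR (3399 genes) held it. A match is a description of letters and not a site, and the absence of these letters says nothing more about the members.

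Promoters are shown because class I and class II genes are known to share short upstream elements, and the genes for several factors that bind them were among those measured. The table of RefSeq promoters (GRCm38.p6, from 250 bases before to 50 bases after a start) had an entry for 7 of the 10 members and did not list H2-Ab1, Cd74 or Tap2. The motifs given next were searched on both strands in all 32851 promoters. The core of the element bound by interferon regulatory factors (IRF), AANNGAAA, was present in 4 of the 7 promoters and in 23.9% of all promoters. It is in capitals below, and in H2-K1 and H2-D1 it lay on the opposite strand.
B2m IRF core, chr2:122147539-122147568, plus strand: taagaacatgaAACTGAAAatgggaaagtc
H2-D1 IRF core, chr17:35262933-35262962, plus strand: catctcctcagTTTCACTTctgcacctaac
H2-K1 IRF core, chr17:34000419-34000448, minus strand: catctccacagTTTCACTTctgcacctaac
The windows of H2-K1 and H2-D1 were identical at 29 of 30 bases. A kappa B element, GGGANTNCC, stood just upstream of the IRF core in both of these heavy chain genes without overlapping it. It was present in 3 of the 7 promoters and in 3.95% of all promoters, and it read as a match on both strands at the same place in H2-D1 and H2-K1.
H2-D1 kappa B element, chr17:35262914-35262943, plus strand: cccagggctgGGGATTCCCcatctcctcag
H2-K1 kappa B element, chr17:34000438-34000467, minus strand: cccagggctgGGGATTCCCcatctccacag
The Y box, which the NF-Y complex binds, was searched by its core CCAAT and was present in 7 of 7 promoters and in 37.4% of all promoters. The core of the X1 box, AGCAAC, where the RFX complex binds, was in 1 of the 7 and in 14.8% of all, and that of the X2 box, TGACG, where factors of the CREB family bind, was in 5 of the 7 and in 20.8% of all.
H2-Eb1 Y box, chr17:34305796-34305825, plus strand: cctttgatgctgATTGGctcccagcactgg
H2-Eb1 X1 box, chr17:34305763-34305792, plus strand: gaatctctaactAGCAACtgatgatgctgg
H2-Aa Y box, chr17:34287854-34287883, minus strand: gagaattttctgATTGGttctggcgagttt
H2-Aa X2 box, chr17:34287880-34287909, minus strand: agctggcaacttTGACGtcatcacaagaga
In H2-Aa the X2 core occurred on both strands and the 2 matches overlapped. These shares describe letters in a fixed window, and no binding was measured.

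The libraries held between 1606909 and 2116720 counts in CTRL and between 2239186 and 2632560 with the ASO, so every ASO library was deeper than every CTRL library. A floor of 3 counts was worth between 1.25 and 1.77 CPM (counts scaled to the TMM-normalized library total) in a single library, which covers counting error only. CTRL replicate 3 stood apart from the other 9 libraries. It was the highest library for 1284 of the 7813 tested genes, which CTRL replicate 5 nearly equalled with 1201, but 223 genes were at least 2 times as high there as in the next library, against at most 39 in any other. Muscle markers such as Acta1 and Ckm were abundant in every library. Of the 6 tested fiber markers 4 were called higher with the ASO, where 11.8% of all tested genes were. The fold change of each counted member is therefore given with and without CTRL replicate 3. In bulk tissue, fewer cells of a type and less RNA per cell cannot be told apart.

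A count of 0 did not show that a member was silent. The authors counted read pairs on segments of at most 500 bp at the ends of transcripts, and a segment that is covered by another transcript's segment held almost no counts. The 16 segments of H2-K1, H2-Aa, H2-Ab1, Cd74, Tap1 and Tapbp lie nearly on top of each other within each gene. The longest run of bases that belongs to 1 segment only was 7 bp in H2-K1, 21 bp in H2-Aa, 9 bp in H2-Ab1, 6 bp in Cd74 and in Tap1, and 1 bp in Tapbp. Over the whole table, 1.37% of segments without such a base had a count, against 30.8% of those with a run of 1 to 20 bp, 57.8% at 21 to 59 bp and 81.0% at 300 to 500 bp. Of the genes with no run above 20 bp, 18.4% had a count, against 77.2% of the others. Genes that muscle and its connective tissue are known to use in quantity, namely Tnnt3, Dcn and Sec61b, were listed at 0 as well. The 6 members are therefore named only, with no level and no fold.

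**Figure D1:**
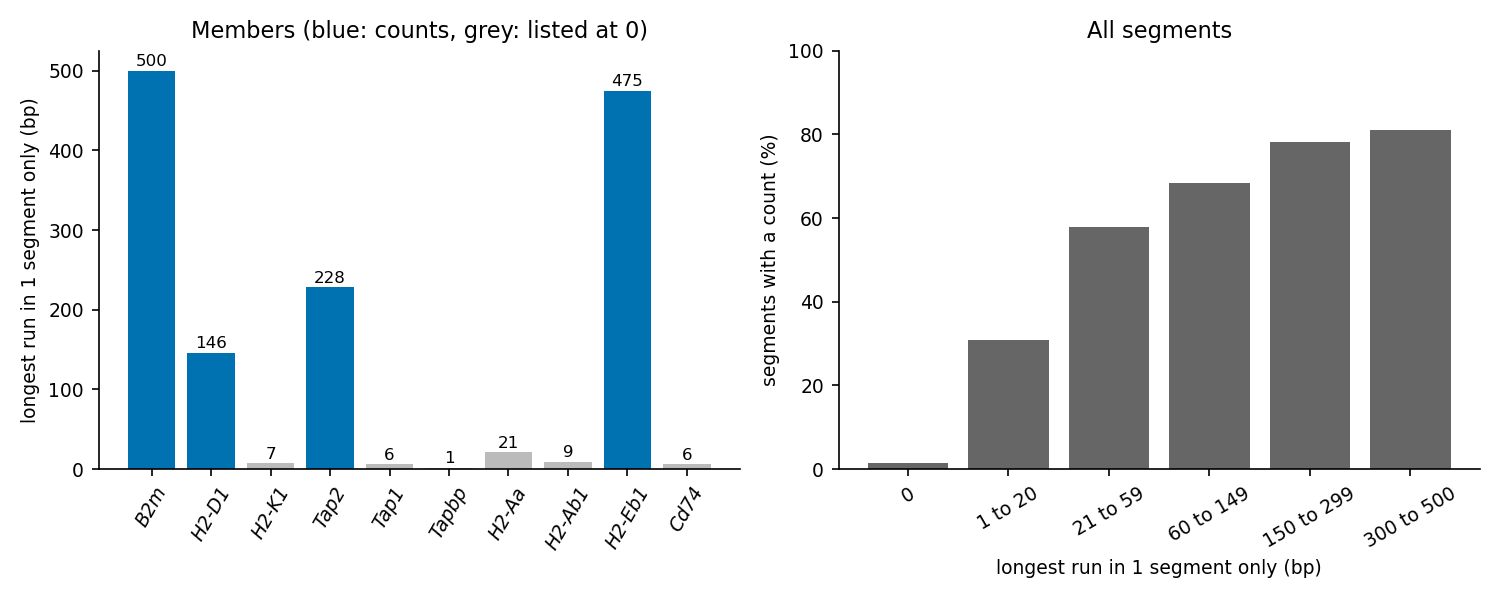
Left, the longest run of bases (bp) that lies in 1 counted segment only, for each of the 10 members, with blue bars for genes with counts and grey bars for genes listed at 0. Right, the share of segments with a count (%) against the same length over the whole table. The 6 genes at 0 have runs of 1 to 21 bp, and the 4 counted genes have 146 to 500 bp.

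The segments behind the counted members differ in kind, and coordinates are on GRCm39. For B2m the segment at chr2:121983065-121983564, plus strand, gave all 16335 counts, and 433 of its 500 bp were exonic in its own transcript while all 500 were exonic in some B2m transcript of GENCODE M39. For H2-D1 the segment chr17:35485830-35486329, plus strand, held 95.4% of 5117 counts, and the more distal one, chr17:35485976-35486475, held 4.65%. Both H2-D1 segments include coding bases of other H2-D1 transcripts, and class I heavy chains are close copies of each other, so that pairs from other heavy chain genes may have been counted or lost here. For H2-Eb1, 93.2% of only 250 counts lay on chr17:34534674-34535173, plus strand, and 6.80% lay on chr17:34535149-34535648. The first is the end of a transcript annotated as subject to nonsense-mediated decay, and 326 of its 500 bp were exonic in that transcript. It also contains all 307 bp of a segment of a protein-coding H2-Eb1 transcript, which was listed at 0. Its counts therefore cannot be assigned to either transcript. For Tap2 the segment chr17:34435068-34435295, plus strand, has 228 bp of 3′UTR and gave 360 counts.

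Per kb of bases that lie in 1 segment only, the order of the levels was B2m, H2-D1, Tap2 and H2-Eb1. B2m averaged 1557 ± 1112 CPM per kb (SD, n = 10), H2-D1 846 ± 704, Tap2 73.9 ± 26.6 and H2-Eb1 17.7 ± 11.4. The SDs of B2m and H2-D1 overlap, but within a library each gene stood above the next in 10 of 10 libraries, for all 3 neighbouring pairs. This order depends on the lengths used. Of the 292 bp of H2-D1, 146 lie in its distal segment, which held only 4.65% of its counts. Over the other 146 bp alone, H2-D1 would stand above B2m per kb in most libraries. By plain counts H2-D1 was at most 38.7% of B2m in any library. The order of Tap2 and H2-Eb1 depends on the lengths in the same way. Of the 668 bp of H2-Eb1, 475 lie in its distal segment, which held only 6.80% of its counts. By plain CPM H2-Eb1 stood above Tap2 in CTRL replicate 3 (29.6 against 23.7), ASO replicate 4 (20.5 against 18.8) and CTRL replicate 5 (10.1 against 9.55). Read pairs that reach into shared bases make these lengths approximate.

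None of the 4 counted members passed the threshold between the groups when all 10 libraries were used. B2m, H2-D1 and H2-Eb1 were on average lower with the ASO and Tap2 was higher, and in each of the 4 genes the groups overlapped. By edgeR's quasi-likelihood test, adjusted after Benjamini and Hochberg, 0 of 4 members had an adjusted p under 0.05, where 29.2% of all tested genes did, 11.8% higher and 17.4% lower. That background depends on the scaling, since 920 higher and 1363 lower genes became 528 and 1819 with total counts scaling and 1262 and 1206 with upper quartile scaling. The count of members with an unadjusted p under 0.05 was also 0, and DESeq2 and limma-voom gave 0 by both counts. The median log2 fold change over the 4 counted members was −0.32, beside −0.029 over all tested genes, and it turned to 0.33, beside 0.0074, without CTRL replicate 3. A p that misses the threshold does not show that the levels were alike.

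B2m, the light chain that every class I molecule needs, had the highest CPM of the 4 counted members. Its level was 926, 546, 823, 701 and 343 CPM in ASO replicates 1 to 5, and 390, 625, 2278, 627 and 526 CPM in CTRL replicates 1 to 5. CTRL replicate 3 was the highest of all libraries by far, ASO replicate 5 was the lowest, and the groups overlapped. Treated muscle averaged 668 ± 230 CPM and CTRL muscle 889 ± 782 CPM (SD, n = 5 per group). The log2 fold change was −0.41 ± 0.44 (SE), with an adjusted p of 0.511 by edgeR's quasi-likelihood test, and the two-sided exact permutation test over all labellings gave p = 0.778. Without CTRL replicate 3 the CTRL mean was 542 ± 112 CPM (SD, n = 4), the sign turned and the log2 fold change was 0.30 ± 0.26 (SE, edgeR adjusted p = 0.432). CTRL replicate 3 held 4.20 times the mean of the other CTRL libraries.

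H2-D1, a classical class I heavy chain, followed B2m. It measured 290, 175, 157, 211 and 107 CPM in ASO replicates 1 to 5 and 117, 168, 811, 228 and 204 CPM in CTRL replicates 1 to 5. CTRL replicate 3 was again the highest library, ASO replicate 5 and CTRL replicate 1 were the lowest, and the groups overlapped. The log2 fold change was −0.70 ± 0.47 (SE), with an adjusted p of 0.281 by edgeR's quasi-likelihood test and p = 0.532 by the exact permutation test. Without CTRL replicate 3, which held 4.52 times the mean of the other CTRL libraries, the sign turned and the log2 fold change was 0.066 ± 0.27 (SE, edgeR adjusted p = 0.885). Treated muscle averaged 188 ± 68.4 CPM (SD, n = 5) and the remaining CTRL muscle 179 ± 48.4 CPM (SD, n = 4).

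Setting the heavy chain against its light chain removes the depth of a library. H2-D1 counts were 31.3%, 32.0%, 19.1%, 30.1% and 31.0% of B2m counts in ASO replicates 1 to 5, and 30.0%, 26.9%, 35.6%, 36.4% and 38.7% in CTRL replicates 1 to 5. The groups overlapped, since CTRL replicates 1 and 2 lay among the ASO libraries, and CTRL replicate 3 was within the CTRL range on this measure. The means were 28.7% ± 5.42 with the ASO and 33.5% ± 4.91 in CTRL (SD, n = 5 each), and the exact permutation test gave p = 0.222. This ratio was chosen after its values were seen. The distal H2-D1 segment took 5.31% ± 2.22 of the gene's counts with the ASO and 4.60% ± 3.60 in CTRL (SD, n = 5 each, exact permutation p = 0.754). It ranged from 2.02% in CTRL replicate 1 (Wilson 95% interval 0.864% to 4.63%) to 10.8% in CTRL replicate 2 (8.004% to 14.4%).

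Tap2, the transporter subunit that forms the peptide pore with Tap1, was the only counted member with a higher mean in treated muscle. It stood at 25.6, 18.7, 23.7, 18.8 and 12.7 CPM in ASO replicates 1 to 5, and at 9.90, 11.7, 23.7, 14.2 and 9.55 CPM in CTRL replicates 1 to 5. Apart from CTRL replicate 3, which lay among the ASO libraries, the groups met only where ASO replicate 5 fell below CTRL replicate 4. Treated muscle averaged 19.9 ± 5.02 CPM and CTRL muscle 13.8 ± 5.84 CPM (SD, n = 5 per group). The log2 fold change was 0.53 ± 0.29 (SE), with an adjusted p of 0.185 by edgeR's quasi-likelihood test and p = 0.0952 by the exact permutation test, whose smallest possible value is 0.00794. Leaving out CTRL replicate 3, where it was 2.10 times the mean of the other CTRL libraries, Tap2 was higher with the ASO by 0.81 ± 0.25 on the log2 scale, with an adjusted p of 0.0322 by edgeR's quasi-likelihood test. In that fit 26.3% of all tested genes were called in either direction and 9.89% were called higher, and Tap2 was the 1 called member of the 4 counted. The call rests on between 17 and 56 counts per library.

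H2-Eb1, the class II beta chain, was near the limit of the depth with 10 to 60 counts per library. It measured 10.1, 11.47, 7.61, 20.5 and 4.72 CPM in ASO replicates 1 to 5 and 4.72, 9.33, 29.6, 10.0 and 10.1 CPM in CTRL replicates 1 to 5. CTRL replicate 3 was the highest library, ASO replicate 4 came next, and the groups overlapped. The log2 fold change was −0.23 ± 0.48 (SE), with an adjusted p of 0.750 by edgeR's quasi-likelihood test and p = 0.825 by the exact permutation test. Without CTRL replicate 3 the sign turned and the log2 fold change was 0.36 ± 0.40 (SE, edgeR adjusted p = 0.547).

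**Figure D2:**
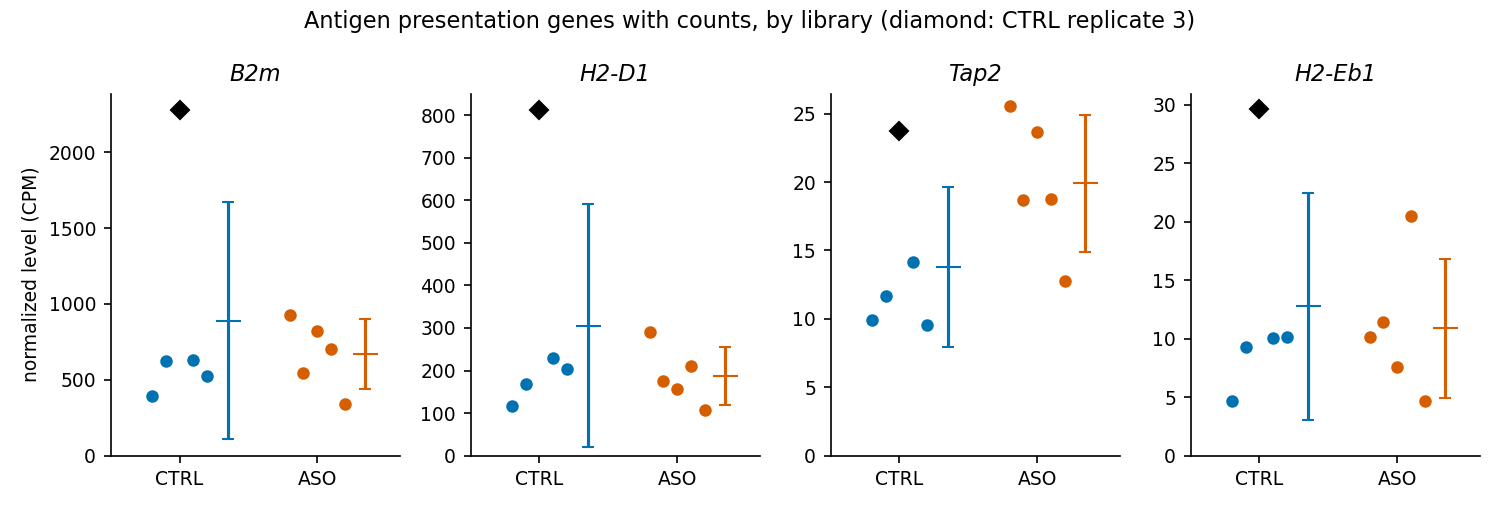
Normalized level (CPM, linear axes from 0) of the 4 counted members, 1 point per library in replicate order, with the mean and SD of 5 libraries beside each group. CTRL replicate 3 (black diamond) is the highest library for B2m at 2278 CPM, for H2-D1 at 811 CPM and for H2-Eb1 at 29.6 CPM, and lies among the ASO libraries for Tap2.

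**Figure D3:**
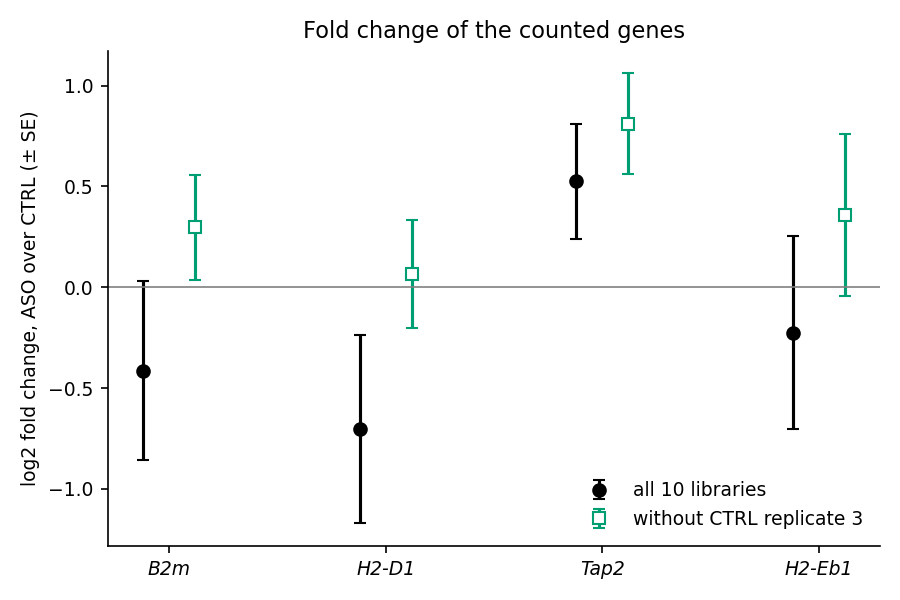
log2 fold change of ASO over CTRL with its SE for the 4 counted members, from all 10 libraries (black circles) and without CTRL replicate 3 (open green squares). B2m, H2-D1 and H2-Eb1 move from below to above 0, and Tap2 goes from 0.53 to 0.81.

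The members that rose and fell together were followed over the 10 libraries by Pearson's r of log2(CPM + 1), as a description with no test, since all points share library depth and the separated CTRL replicate 3. B2m and H2-D1 had r = 0.938, and r = 0.801 over the other 9 libraries. H2-Eb1 was closer to H2-D1 (r = 0.861) than to B2m (r = 0.814), and Tap2 was closer to B2m (r = 0.715) than to either H2-D1 (r = 0.555) or H2-Eb1 (r = 0.529). Over the other 9 libraries the values were 0.736 and 0.615 for H2-Eb1 with H2-D1 and B2m, and 0.755, 0.473 and 0.398 for Tap2 with B2m, H2-D1 and H2-Eb1. Outside the list, the patterns most like that of B2m were those of Tkt (r = 0.994), Pgd (r = 0.981) and Aacs (r = 0.979). H2-D1 was most like Gda (r = 0.971), A530016L24Rik (r = 0.970) and Ppm1m (r = 0.969). H2-Eb1 was most like Unc93b1 (r = 0.985), Cybb (r = 0.968) and Mfsd12 (r = 0.953), and Tap2 was most like Gpx1 (r = 0.972), Fah (r = 0.951) and Prnp (r = 0.943). Over the 9 libraries without CTRL replicate 3, these 12 values lay between 0.884 and 0.988.

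Marker sums of fat and macrophages followed some of the members over the 10 libraries. The 6 adipocyte markers (Adipoq, Plin1, Lep, Cidec, Fabp4 and Cfd) summed to between 714 and 3619 CPM with the ASO and between 843 and 2304 CPM in 4 CTRL libraries, but to 13266 CPM in CTRL replicate 3, and 5 of the 5 tested ones were highest there. None of these markers was at 0 in all libraries, Cfd was too low to be tested, and 0 of 5 were called by edgeR's quasi-likelihood test. Fabp4, the fatty acid carrier of fat cells, made up most of the sum in every library, at 676 to 2665 CPM in ASO and 836 to 8770 CPM in CTRL libraries. Adipoq fell as low as 18.9 CPM in ASO and 2.83 CPM in CTRL libraries. The relations to this sum given next are thus largely relations to Fabp4. Over the 10 libraries B2m followed the adipocyte sum with r = 0.982 (permutation p = 2e-05, Benjamini-Hochberg adjusted 0.00032 over 16 relations) and rho = 0.964 (permutation p = 5e-05, adjusted 0.0008). Leaving out CTRL replicate 3 and ASO replicate 5, the 2 libraries farthest from the median sum, left r = 0.941. B2m was lowest in ASO replicate 5 and CTRL replicate 1, which also had the lowest adipocyte sums. Tap2 followed the same sum with r = 0.761 (permutation p = 0.00573, adjusted 0.0153), rho = 0.782 (permutation p = 0.0106, adjusted 0.0426) and r = 0.864 without these 2 libraries. For H2-D1 r fell from 0.903 (permutation p = 0.00133, adjusted 0.0106, rho = 0.733, permutation p = 0.0198, adjusted 0.0635) to 0.609 without them, and for H2-Eb1 from 0.806 (permutation p = 0.00569, adjusted 0.0153, rho = 0.527, permutation p = 0.124, adjusted 0.283) to 0.428, so these relations rest in part on those libraries. Each group has fewer than 6 libraries, so no value within a group is given. The permutations, here and for the marker sums below, shuffled all 10 libraries without regard to group or to the separated CTRL replicate 3. Their p values therefore look firmer than the design allows. The part of fat in the members' levels was not tested.

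The 14 macrophage markers summed to between 85.8 and 640 CPM with the ASO, to between 305 and 719 CPM in 4 CTRL libraries and to 1893 CPM in CTRL replicate 3. Adgre1, Cd163 and Aif1 were listed at 0 and 8 were tested, 7 of which were highest in CTRL replicate 3. Mrc1, the mannose receptor, and C1qc, a complement chain made by resident macrophages, were lower with the ASO, with log2 fold changes of −1.51 ± 0.49 and −1.61 ± 0.56 (SE, edgeR adjusted p = 0.0358 and 0.0461), and neither was called without CTRL replicate 3. Lyz2, the lysozyme of myeloid cells and the most abundant of the list, had a log2 fold change of −0.89 ± 0.56 (SE, edgeR adjusted p = 0.255). H2-D1 followed the macrophage sum with r = 0.847 (permutation p = 0.0052, adjusted 0.0153) and rho = 0.855 (permutation p = 0.00264, adjusted 0.0211), and H2-Eb1 with r = 0.848 (permutation p = 0.00223, adjusted 0.0119) and rho = 0.794 (permutation p = 0.00862, adjusted 0.0426). The values left after removing CTRL replicate 3 and ASO replicate 5 were r = 0.592 for H2-D1 and r = 0.667 for H2-Eb1. For B2m r fell from 0.780 (permutation p = 0.0181, adjusted 0.0414, rho = 0.552, permutation p = 0.104, adjusted 0.276) to 0.103, and that relation rests on those libraries, while Tap2 had r = 0.358 (permutation p = 0.330, adjusted 0.480, rho = 0.297, permutation p = 0.405, adjusted 0.590). The part of macrophages in these levels was not tested.

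**Figure D4:**
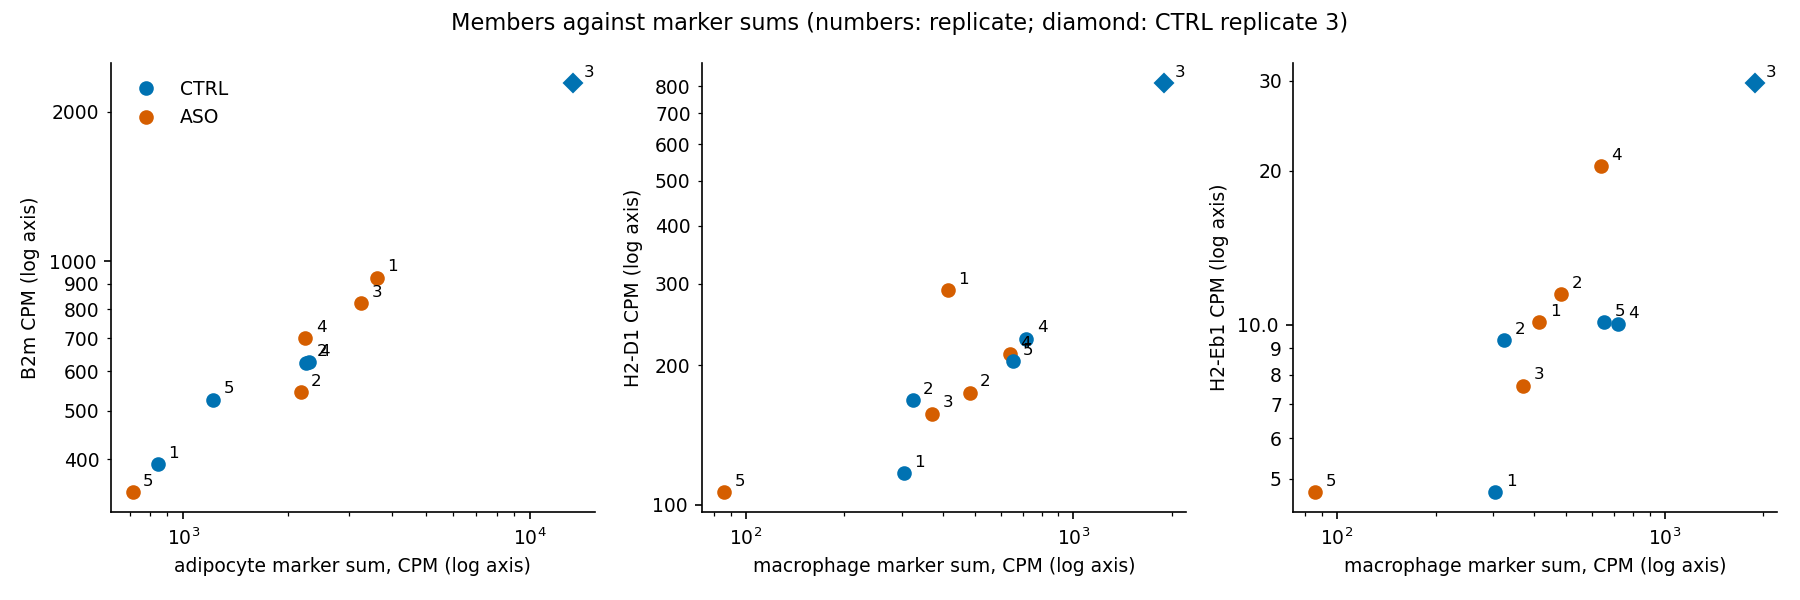
B2m against the summed CPM of 6 adipocyte markers, and H2-D1 and H2-Eb1 against the summed CPM of 14 macrophage markers, on log axes, 1 point per library with its replicate number (blue CTRL, orange ASO, diamond CTRL replicate 3). CTRL replicate 3 is the highest point in every panel, and ASO replicate 5 is the lowest in marker sum.

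Of the remaining lists, the endothelial and the muscle fiber sums were also set against the members. None of the 8 tested endothelial markers was called, and the endothelial sum, 329 to 784 CPM in ASO and 339 to 564 CPM in CTRL libraries with no marker at 0, had r between −0.244 and 0.138 with the 4 members (smallest permutation p = 0.525, adjusted 0.700, rho between −0.297 and 0.0424, smallest permutation p = 0.406, adjusted 0.590). Eng, its most abundant gene, had a log2 fold change of 0.66 ± 0.26 (SE, edgeR adjusted p = 0.0723). Muscle fiber markers summed to 95575 to 155784 CPM in ASO and 46870 to 90402 CPM in CTRL libraries, lowest in CTRL replicate 3, and Acta1 was the most abundant. Tnnt3 was at 0, and the fast myosins Myh1, Myh2 and Myh4 were too low to be tested, at 0.1, 0.7 and 4.2 counts per library on average. Ckm, Actn3, Mybpc2 and Atp2a1, which encode the muscle creatine kinase, the fast fiber actinin, fast myosin-binding protein C and the fast calcium pump, rose by 0.93, 1.79, 1.54 and 1.08 on the log2 scale (edgeR adjusted p = 0.0107, 0.00147, 0.0025 and 0.00415). The muscle sum had r between −0.629 and 0.151 with the members (smallest permutation p = 0.0479, adjusted 0.0958, rho between −0.418 and 0.236, smallest permutation p = 0.233, adjusted 0.466). With CTRL replicate 3 and ASO replicate 5 left out, the muscle sum had r = 0.651 with B2m and r = 0.838 with Tap2. With H2-D1 and H2-Eb1 it then had r = 0.233 and r = 0.215. The endothelial sum had r between −0.479 and −0.272 with the members when ASO replicates 3 and 4 were left out.

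Lymphoid and dendritic markers were scarce. General leukocyte markers summed to 26.9 to 137 CPM in ASO and 45.7 to 110 CPM in 4 CTRL libraries, against 255 CPM in CTRL replicate 3, with Coro1a at 0, none of 3 tested called, and Laptm5 the most abundant (log2 fold change −0.25 ± 0.48, SE, edgeR adjusted p = 0.728). Dendritic markers summed to 21.2 to 36.7 CPM in ASO and 23.6 to 28.1 CPM in 4 CTRL libraries, against 40.5 CPM in CTRL replicate 3, with Xcr1 at 0 and none of 2 tested called. Most of that sum was Zbtb46 (19.7 ± 5.21 CPM in treated and 15.3 ± 3.09 CPM in CTRL muscle, SD, n = 5 per group). T and NK cell markers stayed at or below 10.4 CPM in sum, with Cd8a and Nkg7 at 0, none tested and Trac the highest at 0.472 to 5.93 CPM. B cell markers had 2 of 6 at 0, Cd79b among them, and their sum of 176 to 1658 CPM was nearly all Ighm, the heavy chain of IgM, at 230 to 1658 CPM in ASO and 175 to 543 CPM in CTRL libraries (edgeR adjusted p = 0.160). Fibroblast markers summed to 140 to 613 CPM in ASO and 374 to 752 CPM in 4 CTRL libraries, against 1681 CPM in CTRL replicate 3, with Dcn at 0. No correlation with the members was computed for the leukocyte, dendritic, lymphoid and fibroblast sums. Dpt was the most abundant of the fibroblast markers (log2 fold change −0.99 ± 0.49, SE, edgeR adjusted p = 0.146). Lum, the matrix proteoglycan lumican, was the only 1 of 4 tested fibroblast markers that was called. It was lower with the ASO, with a log2 fold change of −1.72 ± 0.29 (SE, edgeR adjusted p = 0.00135). Col1a1 went the other way without a call (0.36 ± 0.42, SE, edgeR adjusted p = 0.550). Col3a1 was lower without a call (−1.18 ± 0.51, SE, edgeR adjusted p = 0.0991). The part of these cells in the members' levels was not tested.

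Other genes of antigen presentation changed in both directions. Of 57 such genes in 4 lists, 45 had counts and 32 were tested, of which 3 rose and 9 fell by edgeR's quasi-likelihood test. That is 37.5% of those tested, beside 29.2% of all genes, and the groups did not overlap for 7 of them, 21.9%, beside 21.4% of all genes. The median log2 fold change over the 32 genes was −0.16. Without CTRL replicate 3 the counts were also 3 and 9, with all 9 lower genes but only 1 of the 3 higher genes shared, since Rfxank and Jak1 lost their calls and Sec61a1 and Ifi30 gained them (edgeR adjusted p = 0.0411 and 0.0302). With the most distal segment of each gene alone the counts were 0 and 0. However, of the 9 lower genes only Mr1 gave a value there (edgeR adjusted p = 0.133), whereas all 3 higher genes did. The other lower genes were thus not tested in that setting. The lists were chosen with earlier results known, and nothing particular to them follows from these shares.

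Among the class I heavy chains and relatives, 7 of 12 had counts and 4 were tested, of which 0 rose and 1 fell. The gene that fell was Mr1, which presents vitamin metabolites to MAIT cells and is not a peptide presenter. Mr1 measured 66.1 to 91.4 CPM in ASO and 122 to 208 CPM in CTRL libraries, without overlap, and its log2 fold change was −0.95 ± 0.17 (SE, edgeR adjusted p = 0.00147). The non-classical H2-T22 and H2-T23, close copies of other heavy chains, had log2 fold changes of 0.12 and 0.39 (edgeR adjusted p = 0.812 and 0.377).

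Among genes of class I peptide supply and loading, 12 of 14 had counts and 10 were tested, of which 1 rose and 2 fell. Calr, the chaperone calreticulin that holds folded heavy chains in the loading complex, rose from 228 ± 31.9 CPM in CTRL to 365 ± 74.2 CPM (SD, n = 5 per group), with no overlap between the groups and a log2 fold change of 0.68 ± 0.16 (SE, edgeR adjusted p = 0.00865). Its partner in that complex, the oxidoreductase Pdia3, went the other way, from 115 ± 37.0 CPM to 50.04 ± 14.4 CPM (SD, n = 5 per group), which gave a log2 fold change of −1.20 ± 0.24 (SE, edgeR adjusted p = 0.00339). The ranges of Pdia3, 36.3 to 73.1 CPM in ASO and 75.1 to 171 CPM in CTRL libraries, did not overlap. Hspa5, the general chaperone BiP and the most abundant gene of the list, fell by 0.64 ± 0.18 on the log2 scale (SE, edgeR adjusted p = 0.0171), from 580 ± 52.9 to 372 ± 107 CPM (SD, n = 5 per group). The call of Hspa5 was lost without ASO replicate 1 or 3 (edgeR adjusted p = 0.0509 and 0.0514). Calr, Pdia3 and Hspa5 serve the folding of many proteins besides class I. The immunoproteasome subunits Psmb8 and Psmb10, which cut peptides for class I, had log2 fold changes of −0.0053 and 0.32 (edgeR adjusted p = 0.991 and 0.365).

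Among genes of class II loading and processing, 9 of 12 had counts and 5 were tested, of which 0 rose and 2 fell, while Ctss, H2-DMb2 and Lgmn were listed at 0. Ctsl, a lysosomal cysteine protease found in most tissues, fell from 273 ± 136 CPM in CTRL to 122 ± 42.8 CPM (SD, n = 5 per group), which gave a log2 fold change of −1.16 ± 0.33 (SE, edgeR adjusted p = 0.0186), with the groups overlapping between 163 and 171 CPM. Ctsl in CTRL replicate 3 was 2.31 times the mean of the other CTRL libraries, and without that library the log2 fold change was −0.83 (edgeR adjusted p = 0.0375). The call was lost without ASO replicate 3 or 5 (edgeR adjusted p = 0.0513 and 0.0588). Marchf8, a ubiquitin ligase that removes class II and other proteins from the cell surface, fell from 9.23 ± 4.05 to 1.22 ± 0.663 CPM (SD, n = 5 per group). The log2 fold change of Marchf8 was −2.83 ± 0.43 (SE, edgeR adjusted p = 0.000745), at 10.1 counts per library on average. The ASO libraries held 1 to 5 counts, 3 of 5 of them below the floor of 3 counts, so the size of this change is poorly set, while the CTRL libraries held 12 to 26.

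Among the regulators of class I and class II transcription, 17 of 19 had counts and 13 were tested, of which 2 rose and 4 fell. Ifngr2, a chain of the interferon gamma receptor, fell from 71.7 ± 23.3 to 15.5 ± 7.23 CPM (SD, n = 5 per group), which gave a log2 fold change of −2.20 ± 0.37 (SE, edgeR adjusted p = 0.00116). Irf1, a factor that binds IRF elements like those shown above for B2m and H2-D1, fell by 1.22 ± 0.34 on the log2 scale (SE, edgeR adjusted p = 0.0162), from 11.96 ± 3.85 to 5.08 ± 1.89 CPM (SD, n = 5 per group). Creb1, of the family that binds X2 boxes, fell by 1.26 ± 0.26 on the log2 scale (SE, edgeR adjusted p = 0.00399). In the other direction, Rfxank, a subunit of the RFX complex that binds X1 boxes, rose by 0.72 ± 0.22 (SE, edgeR adjusted p = 0.0289), and the kinase Jak1, the most abundant gene of the list, by 0.44 ± 0.16 on the log2 scale (SE, edgeR adjusted p = 0.0494). Neither was called without CTRL replicate 3 (edgeR adjusted p = 0.0598 and 0.0885) or with total counts scaling (edgeR adjusted p = 0.0683 and 0.177). Rfxank also lost its call without ASO replicate 3 or 5 or CTRL replicate 1 (edgeR adjusted p = 0.0544, 0.062 and 0.0568). Jak1 kept its call only without ASO replicate 4 or CTRL replicate 2, and the edgeR adjusted p without any other library was 0.0507 to 0.121. The master regulators Nlrc5 for class I and Ciita for class II were too low to be tested, at no more than 2.47 and 3.76 CPM in any library.

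**Figure D5:**
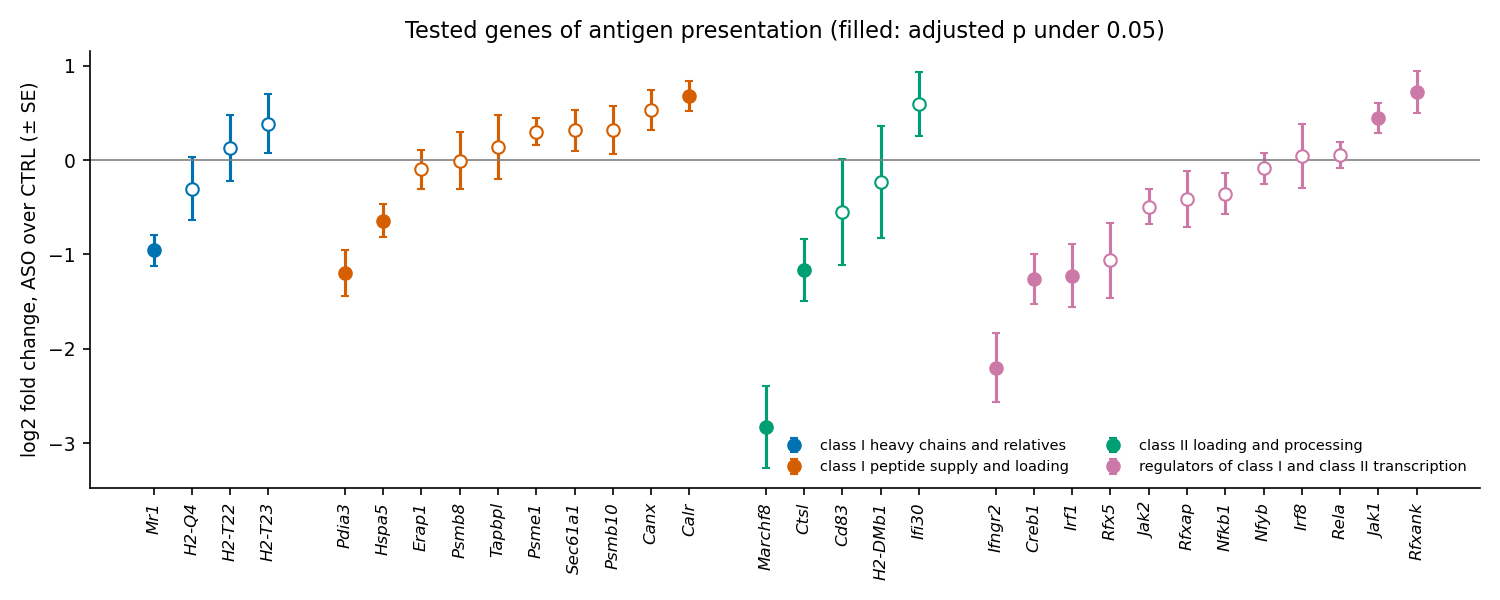
log2 fold change of ASO over CTRL with its SE for tested genes of antigen presentation outside the member list, in 4 groups by role and sorted within each, with filled points for an adjusted p under 0.05 by edgeR's quasi-likelihood test. Marchf8 at −2.83 and Ifngr2 at −2.20 are the lowest, and Rfxank at 0.72 is the highest filled point.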

How the data were processed

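Stranded mRNA libraries of GAS RNA from 5 ASO and 5 CTRL samples were analysed. Per the methods, the authors used fastp for trimming, STAR for alignment to GRCm39 and featureCounts with Gencode M25 for counting pairs over the final 500 bp of each 3′UTR, and they deposited raw counts per transcript segment. No strand option or rule for overlapping segments is named. Here, 52361 of 52423 segments were mapped to GENCODE M39 (the other 62 held 0.0197% of counts) and summed per gene. Another 4 per-sample columns were not used. Testing used edgeR 4.0.16 under R 4.3.3 (TMM, filter on low counts by group, quasi-likelihood test, Benjamini-Hochberg adjustment, threshold 0.05). CPM values are TMM-scaled. Alternatives were DESeq2 1.42.0, limma-voom in limma 3.58.1, other scalings and filters, the most distal segment alone, drawing down to 1606262 counts, a replicate block, and fits that left out 1 library each. Correlations used log2(CPM + 1) and 100000 resamples. The script was tested on simulated data.

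Members and gene lists were chosen with earlier results of these data known. Named genes were all members, every other antigen presentation gene past the threshold (up to 12), the most abundant gene of each list, marker genes past the threshold (up to 6 a list) and, for each member whose mean count per library was at least 20, the 3 genes most like it. Tnnt3, Dcn, Sec61b, the non-classical heavy chains, Psmb8, Psmb10, Sec61a1, Ifi30, Nlrc5, Ciita, Ctss, H2-DMb2 and Lgmn were named after their values were seen. The same holds for the values of Adipoq, Col1a1, Col3a1, Myh1, Myh2 and Myh4. The methods describe groups of 5 mice, and each library was taken as 1 mouse, which the labels do not state. No 2 libraries agreed within sampling noise. The miR-22 level itself was not analysed here. Depth limits precision for genes with few counts, and intervals cover counting error only. Values of some single genes that the counts over lists include are not reported here.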

Additional observations from a re-analysis of the deposited data

Results flagged for a closer look

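The 4 counted members and the 9 marker sums were checked in each group, which makes 26 group values of 5 libraries each. In 7 of them the gap between the most extreme library and its neighbour was above 0.710 of the group's range, where chance flags about 1 in 20. All 7 came from CTRL and from its replicate 3. The gap was 0.875 of the range for B2m (2278 CPM there), 0.840 for H2-D1 (811 CPM) and 0.784 for H2-Eb1 (29.6 CPM). Among the marker sums it was 0.882 for adipocytes (13266 CPM), 0.739 for macrophages (1893 CPM), 0.734 for dendritic cells (40.5 CPM) and 0.711 for fibroblasts (1681 CPM). These values come from 1 library and are not independent of each other.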

How the results depend on the processing

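The median log2 fold change of the counted members, −0.32 with all libraries, lay between −0.52 and 0.33 when each library was left out, and the only positive value, 0.33, came without CTRL replicate 3, where all tested genes had a median of 0.0074. Without it B2m (0.30), H2-D1 (0.066) and H2-Eb1 (0.36) changed sign, and over the libraries left out the lowest values were −0.60, −0.91 and −0.57. The members called went from 0 to 1 (Tap2, adjusted p = 0.0322 by edgeR), so the range of that count was 0 to 1. Under the 10 other settings 0 members were called and no member changed sign, although H2-Eb1 could not be fitted with the most distal segment alone. Over those settings Tap2 had an adjusted p between 0.120 and 0.666 and a log2 fold change between 0.22 and 0.61 by edgeR, DESeq2 or limma-voom. Higher calls among the other antigen presentation genes, 3 with all libraries, numbered 1 to 3 when a library was left out, and 1 without ASO replicate 3, ASO replicate 5 or CTRL replicate 1. They were 1 with total counts scaling and 0 with the most distal segment alone. Lower calls, 9, numbered 7 to 10 when a library was left out and 0 with the most distal segment alone, where only Mr1 of the 9 gave a value. Over all genes, 920 higher and 1363 lower calls became 528 and 1819 with total counts scaling, which moved the median log2 fold change to −0.21, 1262 and 1206 with upper quartile scaling, and 232 and 335 of 5087 tested genes with the most distal segment alone, where far fewer genes are tested. Leaving out a library gave 692 to 1021 higher and 1127 to 1369 lower. Why the distal segment gave fewer calls beyond that was not tested.

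With the replicate number as a block, 662 genes were higher and 1172 lower, 0 members were called, and 1 other antigen presentation gene was higher, since Rfxank and Jak1 lost their calls (adjusted p = 0.0650 and 0.0737 by edgeR), as did Ctsl (adjusted p = 0.0727). The deviations of same-numbered ASO and CTRL libraries correlated between −0.428 and 0.164, and not every pair was above 0.1, so the numbers were not taken as pairs. Of the named genes with calls, Jak1 lost its call in 12 settings and Rfxank in 8, Ctsl in 3, Hspa5 in 2, Mr1 and Calr in 1 each (the most distal segment alone), and Marchf8, Ifngr2, Pdia3, Creb1 and Irf1 in none that gave a value. Depth limits H2-Eb1, with 10 to 60 counts per library, and Tap2, and 6 members have no usable counts.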
